A study of Mus musculus with 12 samples.

Results

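The comparison described here is that of N9 cells given lipopolysaccharide (LPS) in high-glucose medium with N9 cells given LPS in control medium. It was chosen by the sample labels alone and takes in 6 of the 12 RNA sequencing libraries of the series, 3 a side, and every gene of the count table. Microglia are the brain's own macrophages, and N9 is a mouse line of them that grows without limit in culture. Control medium was glucose-free DMEM with 5% dialyzed serum, 3 mM glucose and 5 mM fructose, and high-glucose medium was the same medium with 15 mM glucose. Cells spent 18 h in their medium before LPS was given at 1 µg/ml for another 6 h. Both sides therefore carried fructose and dialyzed serum, and both received LPS. The remaining groups, of 3 libraries each, were control medium without LPS and medium with 15 mM fructose followed by LPS. The labels do not say whether 15 mM is the final concentration or the amount added, and they list neither a high-glucose culture without LPS nor a medium made osmotically equal. Whether the 3 libraries of each group stem from different cultures is not in the labels. The p-values of the gene tests set a difference between groups against the spread of libraries within groups, estimated over all 12 libraries. Part of that spread may be technical.

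Cells take up glucose mainly through the transporter GLUT1 and trap it as glucose 6-phosphate. That sugar phosphate is read by a pair of related transcription factors, MondoA and ChREBP, which bind carbohydrate response elements and switch on arrestin-like genes such as Txnip and Arrdc4, whose products lower further uptake. A branch from glycolysis, the hexosamine pathway, makes the donor sugar that O-GlcNAc transferase attaches to proteins and O-GlcNAcase takes off. LPS works through Toll-like receptor 4, and in macrophages it raises cytokines, enzymes such as the itaconate producer Acod1 and, with them, the inhibitors that later restrain the response.

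Counted reads per library ran from 15919091 to 17015639 over the 6 libraries. Mitochondrial protein-coding genes took 0.590 ± 0.079% of reads in control medium and 0.551 ± 0.092% in high glucose (mean ± SD, n = 3 each; two-sided exact permutation p = 0.6, where 3 against 3 can reach no less than 0.1). Ribosomal RNA genes took 0.603 ± 0.059% and 0.546 ± 0.112% (exact permutation p = 0.6). On the first principal component of the 6 libraries, which held 30.5% of the variance, the control libraries lay at −16.4, −13.4 and −5.51 and high-glucose libraries 2 and 3 at 21.3 and 24.6. High-glucose library 1 lay at −10.6, among the control libraries. Most listed macrophage markers matched the label. The summed level of the 10 listed genes was 3070 to 3170 CPM in control medium and 2740 to 2900 CPM in high glucose. CPM are counts relative to the library's total, scaled by edgeR's trimmed mean of M-values. However, Aif1 of this list had only 2 to 9 counts, and Itgam had means of 11.9 and 11.4 CPM. Of 9 tested markers 2, Csf1r and Lyz2, were called lower by edgeR. Lyz2 was lost when any library other than high-glucose 1 was left out (edgeR adjusted p 0.0696 to 0.182). Of 20 listed homeostatic microglia genes, 12 were expressed well enough to test. Among genes too low to test, P2ry12 had 2 to 6 counts over the 6 libraries, and Sall1 and Siglech had none. The 8 astrocyte markers summed to 190 to 201 CPM over both media, nearly all of it from Aldoc (means of 97.5 and 90.6 CPM in control medium and high glucose), the gap junction gene Gja1 (75.5 and 83.0) and Aldh1l1 (22.6 and 18.8), and their part in the results was not tested. Other marker lists were lower. Summed levels were 27.8 to 33.9 CPM for 10 neuronal genes and 27.7 to 32 CPM for 8 oligodendrocyte genes. Nearly all of the oligodendrocyte sum came from Mbp (means of 27.9 and 29.5 CPM in control medium and high glucose). The fibroblast list reached at most 8.85 CPM and the lymphocyte list 0.318 CPM. Epithelial genes summed to 0.0596 to 3.28 CPM in control medium and 0 to 17.2 CPM in high glucose. Among them Krt8 had 0 to 201 counts over the 6 libraries, and their part in the results was not tested. No read was found for the astrocyte channel gene Aqp4, the endothelial gene Cldn5, the oligodendrocyte genes Olig2 and Sox10 or the lymphocyte gene Cd3e. In such bulk libraries fewer cells of a kind and less RNA per cell cannot be told apart.

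Of 54532 genes, 12766 had enough reads to be tested. Few of them were called as changed in high glucose, and most of the called changes were small. By edgeR's quasi-likelihood test, with a gene called at a Benjamini-Hochberg adjusted p below 0.05, 75 genes (0.587% of those tested) were higher and 124 (0.971%) lower, together 1.56%. At an unadjusted p below 0.05 there were 859 higher (6.73%) and 921 lower (7.21%), together 13.9%. The median change on the log2 scale was 0.29 for the genes called higher and −0.32 for those called lower, beside 0.0027 over all tested genes. A change of at least 1.5-fold was reached by 8 of the higher and 10 of the lower genes. The libraries of the 2 media did not overlap for 75 of the 75 higher and 122 of the 124 lower genes, against 1200 (9.40%) and 1246 (9.76%) of all tested genes in those directions. The call and the lack of overlap come from the same libraries, so the second is no separate support. For genes named by the size or p of their change it was also a condition. Leaving out 1 library at a time, 46 of the 199 genes, 14 higher and 32 lower, passed in every one of the 6 fits, and no called gene changed direction in any. The number of calls fell to 67, 74 or 71 when control-medium library 1, 2 or 3 was dropped and to 70 on dropping high-glucose library 3, and it was 427 with no filter on low counts and 329 with DESeq2. Values below are CPM in control-medium libraries 1, 2 and 3 and then in high-glucose libraries 1, 2 and 3, all with LPS, and changes are log2 fold changes with the standard error (SE) after ±.

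**Figure D1:**
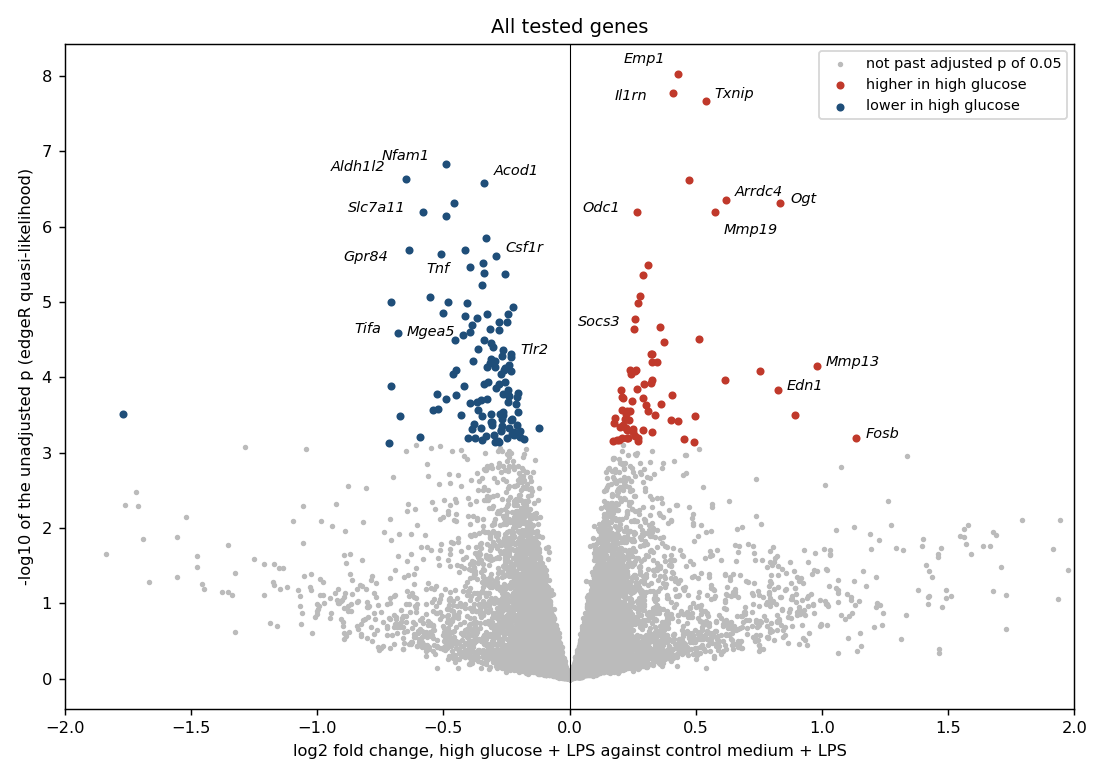
Each point is 1 of the 12766 tested genes, with the log2 fold change of high glucose against control medium, both with LPS, on the horizontal axis and −log10 of the unadjusted edgeR p on the vertical axis. Red points were called higher (75) and blue points called lower (124), and most called genes lie within 1 log2 unit of 0. The axis leaves out 41 tested genes, 1 of them called (Gapdh).

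Txnip and Arrdc4, known targets of MondoA and ChREBP, were higher in high glucose. Of the 10 tested genes on a list of these factors, their partner Mlx and their targets, 2 were higher and none lower (median 0.13). At an unadjusted p below 0.05, 5 were higher. Mlxipl, the gene for ChREBP, had 0 to 4 counts over the 6 libraries and was not tested. Txnip encodes a thioredoxin-binding arrestin that slows glucose entry. It was at 66.6, 60.7 and 63.5 CPM in control medium and 96.2, 92.5 and 88.4 CPM in high glucose. Every high-glucose library lay above every control library, a change of 0.54 ± 0.05 (1.45-fold; edgeR adjusted p = 9.25e-05). Arrdc4, its close relative, was at 33.6, 33.6 and 31.9 CPM and then at 54.4, 45.5 and 52.2 CPM, again without overlap (0.62 ± 0.08, 1.54-fold; edgeR adjusted p = 0.00063). Both passed whichever library was left out. The repressor gene Bhlhe40, with the next smallest p, stood at 0.16 (edgeR adjusted p = 0.14), and the 7 others lay between −0.05 and 0.21. A gene on the other strand overlaps 19.4% of the exonic bases of Txnip. The sources used here do not give the counts' strand setting, so reads from the pair cannot be told apart.

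The sequences just before these 2 genes are shown because such factors are known to bind carbohydrate response elements. The 250 bases before the RefSeq transcription start (GRCm38.p6) are printed 5′ to 3′ on the gene's strand, at chr3:96557707-96557956 on the plus strand for Txnip and chr7:68749239-68749488 on the minus strand for Arrdc4. Capitals mark paired carbohydrate response half-sites in Txnip and the E-box CACGTG in Arrdc4. The CCAAT box, also as its reverse complement ATTGG, is capitalised in both as a separate pattern.
Txnip: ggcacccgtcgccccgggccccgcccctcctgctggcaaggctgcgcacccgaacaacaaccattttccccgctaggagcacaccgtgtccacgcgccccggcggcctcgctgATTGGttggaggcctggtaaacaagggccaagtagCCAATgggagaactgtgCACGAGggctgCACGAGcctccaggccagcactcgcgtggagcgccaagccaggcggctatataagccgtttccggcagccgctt
Arrdc4: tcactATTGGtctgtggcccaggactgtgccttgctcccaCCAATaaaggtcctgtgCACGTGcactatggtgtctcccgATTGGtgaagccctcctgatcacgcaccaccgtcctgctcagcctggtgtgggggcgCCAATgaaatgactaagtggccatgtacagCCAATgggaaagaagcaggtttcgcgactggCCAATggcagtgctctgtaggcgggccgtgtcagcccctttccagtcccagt
The paired pattern searched for, on both strands, was a pair of CACGNG half-sites separated by 5 bases, where N is any base. In Txnip it spans bases −85 to −69 counted from the start, and the Arrdc4 window does not hold it. Of 32851 RefSeq windows of the same length, 15 (0.0457%) hold it. The E-box of Arrdc4 lies at −193 to −188, and 6.02% of windows hold one. CCAAT boxes numbered 2 in Txnip and 6 in Arrdc4, and 33.8% of windows hold at least 1. Over all genes of the comparison that have a window, the E-box was present in 5 of 57 called higher (8.77%), 7 of 96 called lower (7.29%) and 10.1% of 9496 tested, and the paired pattern in 1, 1 and 10 of them.

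O-GlcNAc cycling genes changed on both sides of the cycle. Of 13 tested members of the hexosamine pathway and O-GlcNAc list, 1 was higher and 1 lower (median 0.02). Ogt, the transferase gene (chromosome X at 101640060 to 101684351 of GRCm38), was at 34.7, 37.5 and 40.0 CPM in control medium and 57.6, 72.6 and 69.5 CPM in high glucose. That is a rise of 0.83 ± 0.11, or 1.78-fold (edgeR adjusted p = 0.00063). Mgea5, now called Oga, the gene of the enzyme that removes the sugar (chromosome 19 at 45750261 to 45783520), was at 96.3, 101 and 110 CPM and then at 70.3, 84.4 and 80.5 CPM. It fell by 0.39 on the log2 scale (SE 0.07, 23.5% lower; edgeR adjusted p = 0.00618), the reverse of Ogt. Neither gene's libraries overlapped between the media, and both passed whichever library was left out. The other 11 members, among them the gene for the enzyme that commits sugar to the pathway, lay between −0.13 and 0.74 with none called.

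**Figure D2:**
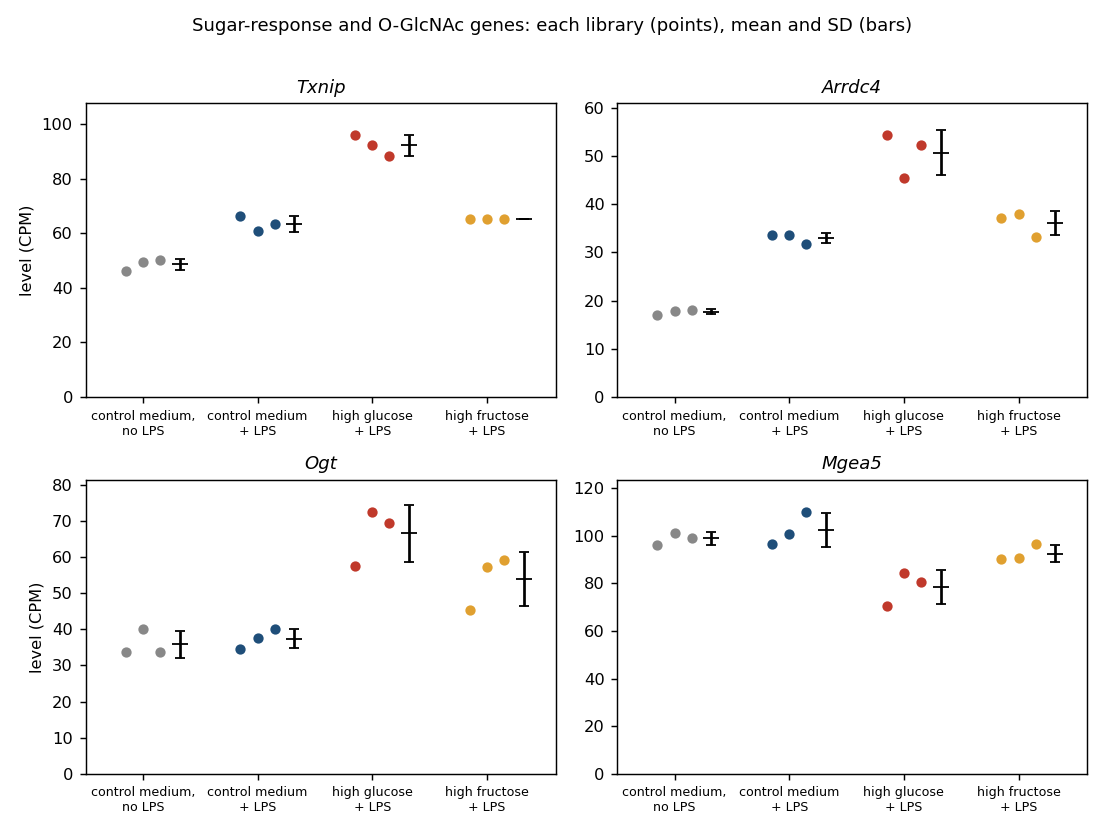
Level in CPM of Txnip, Arrdc4, Ogt and Mgea5 in each library of the 4 groups (points), with the mean and SD of 3 libraries beside them. Txnip and Arrdc4 are highest in the 3 high-glucose libraries, Ogt is at 57.6 to 72.6 CPM there against 34.7 to 40.0 CPM in control medium with LPS, and Mgea5 lies lowest in high glucose.

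Few genes of sugar uptake and breakdown were called. Among 12 tested hexose transporters and hexokinases edgeR called none higher and 1 lower, Slc2a6, a lysosomal transporter induced in activated macrophages. It was at 142, 147 and 131 CPM and then at 113, 110 and 118 CPM (−0.30 ± 0.06; edgeR adjusted p = 0.00908). That call was lost without control-medium library 1 or 2 (0.0524 and 0.0640). Slc2a1, which encodes GLUT1, was at 250, 255 and 250 CPM against 272, 278 and 286 CPM, higher in each library but not past the adjusted threshold (0.15 ± 0.04; edgeR adjusted p = 0.103), although DESeq2 called it (0.0352). Of 20 glycolysis genes 1 was called, Gapdh, which is uncertain: 94.2% of its coding transcript matches other genes, and its level ran over 125, 11 and 212 CPM in the control libraries against 10.7, 13.9 and 13.4 CPM. Gapdh no longer passed when any library other than control-medium 2 was left out (0.0637 to 0.117). Hk1 and Hk2 stood at 0.09 and −0.10 and the fructokinase gene Khk at 0.17, none of them called.

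Mitochondrial and osmotic genes also gave few calls in edgeR's main fit. Of 34 tricarboxylic acid cycle genes none was higher and 1 lower, Idh1 (cytosolic isocitrate dehydrogenase, −0.28 ± 0.06), lost on leaving out any library other than control-medium 3 or high-glucose 2 (0.0515 to 0.104). Among 30 nuclear-encoded oxidative phosphorylation genes edgeR called 0, DESeq2 called 0, and 0 had an unadjusted p below 0.05 (median 0.01). Osmotic response genes, listed because 15 mM glucose also raises solute, had 0 of 14 called by edgeR and 2 by DESeq2. At an unadjusted p below 0.05 there were 4 higher and none lower, against 6.73% of all tested genes higher. Of the 14, 12 had a positive and 2 a negative change, with a median of 0.08. The neutral amino acid carrier Slc38a2 (0.21, edgeR adjusted p = 0.072) and the aldose reductase gene Akr1b3 (0.20, 0.092) came nearest, and these were the 2 that DESeq2 called (0.0173 and 0.0351). Both also passed in edgeR with no filter on low counts (0.00708 and 0.0316) and with the replicate number as a block (0.00648 and 0.0076). Slc38a2 passed without high-glucose library 1 as well (0.0251). Akr1b3 is uncertain, as 97.5% of its coding transcript matches other genes. The inositol carrier Slc5a3 was at 0.33 (0.34).

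Among 18 tested effectors 5 were lower and none higher by edgeR, and 7 lower and 1 higher by DESeq2 (median −0.17), with 9 lower and 2 higher at an unadjusted p below 0.05. Acod1, which makes the antibacterial metabolite itaconate (chromosome 14 at 103046977 to 103056573), was at 3992, 3904 and 3739 CPM in control medium and 3012, 3244 and 2949 CPM in high glucose. It fell by 0.34 on the log2 scale (SE 0.04, 20.9% lower; edgeR adjusted p = 0.000476), with no overlap. For scale, LPS raised Acod1 by 4.70 in control medium, a comparison that uses the same control-medium libraries and called 15.2% of tested genes higher. Gpr84, a receptor for medium-chain fatty acids, was at 39.6, 33.4 and 37.5 CPM and then at 23.6, 22 and 25.4 CPM (−0.64 ± 0.09; edgeR adjusted p = 0.00154), and genes on the other strand overlap 39.5% of its exonic bases. Acod1 and Gpr84 passed whichever library was left out. The other 3 were the NADPH oxidase subunit gene Cybb (−0.23), the lectin receptor gene Clec4e (−0.23) and the arginine synthesis gene Ass1 (−0.33), which is uncertain because 73.1% of its transcript matches other genes. Cybb was lost when any library other than high-glucose 2 was left out (0.0805 to 0.174), Clec4e and Ass1 without high-glucose library 3 or either of control-medium 1 and 3 (0.0601 to 0.0895). Nos2, the nitric oxide synthase gene, pointed the other way without passing: 17.7, 23.0 and 18.6 CPM against 26.2, 28.0 and 27.1 CPM (0.46 ± 0.12; edgeR adjusted p = 0.0606). Nos2 did pass with DESeq2 (0.0145), with no filter on low counts (0.00971), with the replicate number as a block (0.0162) and in the 6 libraries alone (0.0416). It also passed without control-medium library 2 (0.0484), but not with any other library left out (0.107 to 0.248).

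Tnf was the 1 gene called among the 13 tested on a list of inflammatory cytokines, which does not hold every cytokine gene. It was at 225, 225 and 233 CPM in control medium and 172, 182 and 166 CPM in high glucose, so the groups did not overlap (−0.39 ± 0.06, 23.9% lower; edgeR adjusted p = 0.00202), and it passed in each leave-one-out fit. The TNF-family gene Tnfsf13b, outside that list and picked out after its value was seen, was also called lower (−0.34). Its call was lost without the third library of either medium. Il1a stood at −0.38 (edgeR adjusted p = 0.33), Il1b at −0.19 (0.77) and Il6 at 0.31 (0.88), the last with levels of 0.319 to 1.10 CPM. By edgeR 0 of 13 chemokine genes and 0 of 36 interferon-stimulated genes were called, and 0 and 1 by DESeq2. With no filter on low counts 7 of 37 interferon-stimulated genes were lower and 1 chemokine gene higher. At an unadjusted p below 0.05 there was 1 higher chemokine gene, and 11 interferon-stimulated genes were lower and 1 higher. Of those 36 genes, which restrain viral growth, 32 had a negative change, with a median of −0.15 that ran from −0.18 to −0.09 over all settings tried. Ifit2, which binds viral RNA, was at 328, 336 and 313 CPM against 261, 313 and 249 CPM (−0.25 ± 0.08; edgeR adjusted p = 0.154), and high-glucose library 2 nearly equalled the lowest control library. Without that high-glucose library Ifit2 passed (0.0258). It also passed with no filter on low counts (0.00161) and with the replicate number as a block (0.00523).

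Several inhibitor and early-response genes rose. Il1rn encodes the secreted antagonist of the interleukin-1 receptor (chromosome 2 at 24336853 to 24351494). Its level was 1319, 1272 and 1238 CPM in control medium and 1691, 1758 and 1635 CPM in high glucose, a rise of 0.41 ± 0.04 or 1.33-fold (edgeR adjusted p = 9.25e-05). Socs3, which blocks cytokine receptor signalling, went from 161, 167 and 158 CPM to 194, 191 and 196 CPM (0.26 ± 0.04; edgeR adjusted p = 0.00546). Ier3, an early gene that modulates NF-kB and survival signals, went from 183, 177 and 184 CPM to 245, 222 and 231 CPM (0.36 ± 0.06; edgeR adjusted p = 0.00635). The 3 genes had no overlap between media and passed whichever library was left out. In control medium LPS raised Il1rn by 2.99, Socs3 by 2.07 and Ier3 by 2.41. Over the whole list of 25 NF-kB subunits and feedback regulators 3 were higher (Il1rn, Socs3 and the MAP kinase phosphatase gene Dusp1 at 0.36) and 1 lower (Tnfaip2 at −0.28) by edgeR, and 3 each by DESeq2, with a median of 0.00. Among 23 immediate early genes 3 were higher, Ier3, Ier5 (0.27) and the AP-1 subunit gene Fosb (1.14), and none lower by edgeR, against 2 higher and 1 lower by DESeq2 (median 0.08).

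Of these calls, 4 were lost in some of the fits that left out a library, with the direction kept in each. Dusp1 was lost when any library other than high-glucose 2 was left out (0.0618 to 0.122, with changes of 0.33 to 0.42), and so was Ier5 (0.0538 to 0.0889). Fosb, at only 1.19 to 3.25 CPM, was lost when any library other than high-glucose 1 was left out (0.111 to 0.192, with changes of 1.00 to 1.32), and Tnfaip2 without control-medium library 1 or high-glucose library 3 (0.0524 and 0.0512). The NF-kB inhibitor genes Nfkbia (0.05) and Tnfaip3 (−0.20) were not called by edgeR's main fit. Tnfaip3 was called lower by DESeq2 (0.0456) and by edgeR with the replicate number as a block (0.032).

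**Figure D3:**
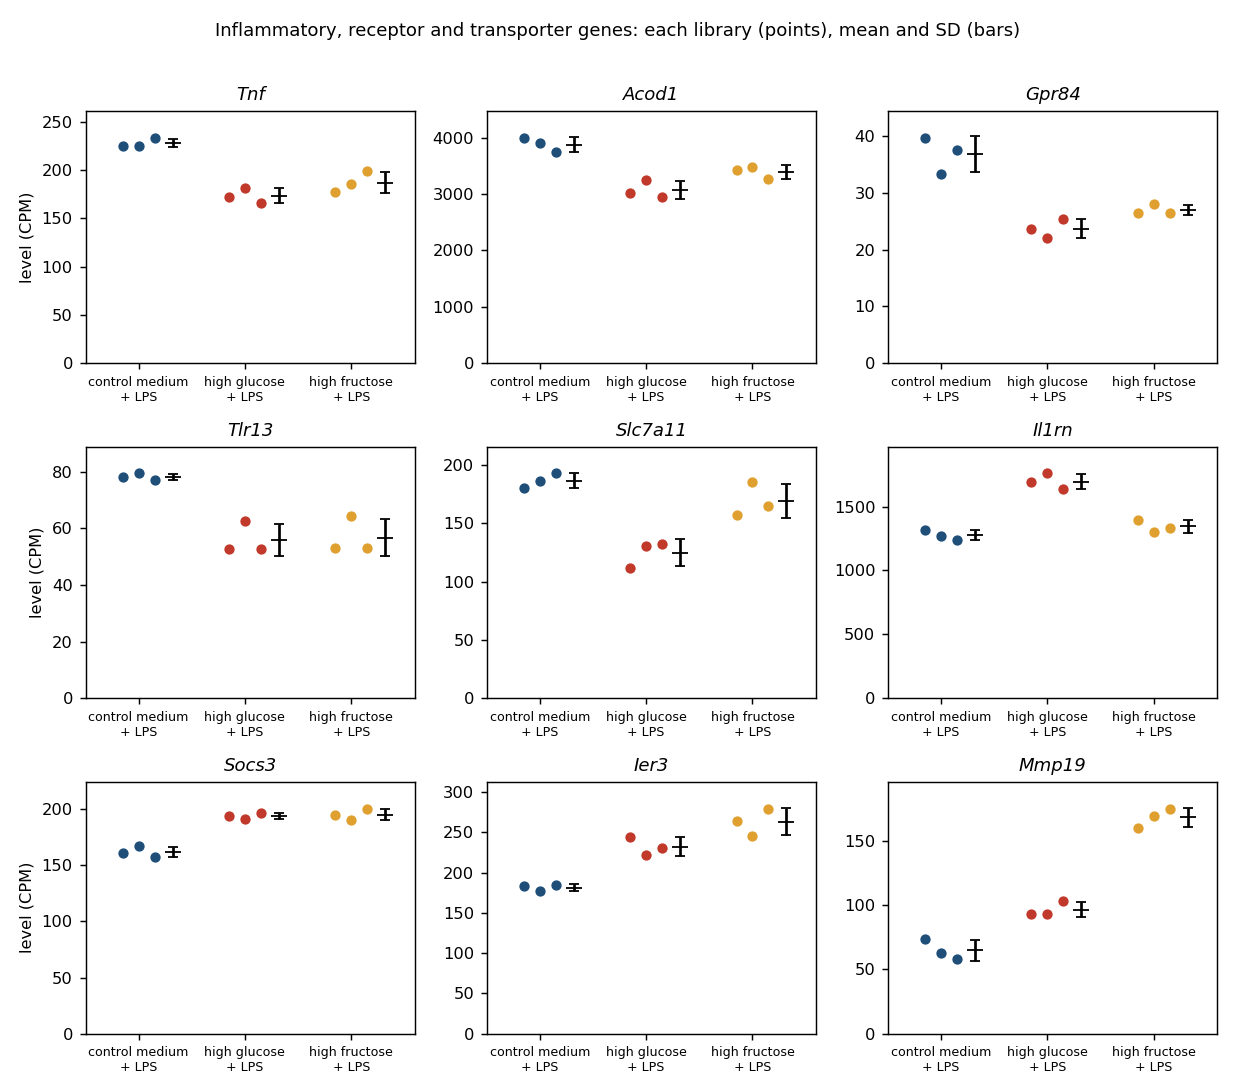
Level in CPM of 9 genes in each library with LPS, in control medium, high glucose and high fructose (points), with the mean and SD of 3 libraries beside them and each axis starting at 0. Tnf, Acod1, Gpr84, Tlr13 and Slc7a11 are lower in all 3 high-glucose libraries than in any control-medium library, and Il1rn, Socs3, Ier3 and Mmp19 are higher.

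Several genes of microbe recognition were lower. Of 29 tested genes of the Toll-like receptor pathway 4 were lower and none higher (median −0.09), with 10 lower and 1 higher at an unadjusted p below 0.05. Tlr13, an endosomal receptor for bacterial ribosomal RNA, was at 78.1, 79.4 and 77.1 CPM and then at 52.8, 62.5 and 52.7 CPM (−0.48 ± 0.08; edgeR adjusted p = 0.00415). Tlr2, a receptor for bacterial lipoproteins, was at 418, 410 and 416 CPM and then at 348, 357 and 355 CPM (−0.23 ± 0.04; edgeR adjusted p = 0.0106). Neither overlapped between the media. The kinase gene Ikbke, which leads to IRF3, stood at −0.39 ± 0.07 and the TRAF6 adaptor gene Tifa at −0.68 ± 0.12 (edgeR adjusted p = 0.0068 each). Tlr13 passed in every leave-one-out fit, Tlr2 was lost without control-medium library 1 or 3 (0.0559 and 0.0541), Ikbke without library 2 (0.0537) and Tifa without library 1 (0.0558). Tlr4, the LPS receptor gene, was at −0.08 and its co-receptor Cd14 at 0.10, neither called. Unc93b1, which carries the endosomal receptors to their compartment and was picked out after its values were seen, was at 156, 156 and 141 CPM and then at 125, 125 and 123 CPM (−0.28 ± 0.05; edgeR adjusted p = 0.00579).

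Among single genes named for the size or p of their change, several with known roles in macrophages were lower. Csf1r, the receptor for the growth factor that keeps microglia alive, was at 469, 476 and 469 CPM in control medium and 383, 384 and 390 CPM in high glucose (−0.29 ± 0.04; edgeR adjusted p = 0.00165), and a gene on the other strand covers 15.1% of its exonic bases. Itgb2, the shared chain of the leukocyte integrins, was at 338, 334 and 327 CPM and then at 278, 282 and 283 CPM (−0.24 ± 0.04; edgeR adjusted p = 0.00515). Both separated the media completely, which was a condition for naming genes by size or p. The inhibitory Fc receptor gene Fcgr2b (−0.41 ± 0.07), the signal regulator gene Sirpa (−0.26 ± 0.04), the pore-forming protein gene Mpeg1 (−0.33 ± 0.05), the ITAM-bearing receptor gene Nfam1 (−0.49 ± 0.06) and the growth factor gene Igf1 (−0.37 ± 0.06) were lower as well (edgeR adjusted p 0.000467 to 0.00546). These 7 genes passed whichever library was left out. So did the complement receptor gene C5ar1 (−0.31 ± 0.05) and the surface receptor gene Igsf6 (−0.33 ± 0.05), both picked out after their values were seen.

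By list, 3 of 31 phagocytic and lysosomal genes, Itgb2 and Fcgr2b among them, were lower and none higher by edgeR, and 7 and 0 by DESeq2 (median −0.08), with 12 lower and none higher at an unadjusted p below 0.05. Homeostatic microglia genes had 2 of 12 lower and none higher (median −0.15), Csf1r being one of them. The fractalkine receptor gene Cx3cr1, at 2.98, 1.97 and 4 CPM against 1.34, 1.35 and 0.955 CPM, showed the largest change of that list. It missed the threshold (−1.29 ± 0.32; edgeR adjusted p = 0.0536). Cx3cr1 did pass without control-medium library 2 (0.0453), with no filter on low counts (0.00401) and with the replicate number as a block (0.0427). Disease-associated microglia genes had 1 of 23 higher, the pyrophosphate exporter gene Ank (0.18), and 4 lower, Igf1, the metalloproteinase inhibitor gene Timp2 (−0.34), the cystatin gene Cst7 (−0.33) and Gpnmb (−0.12), with a median of −0.12. Igf1 passed in each leave-one-out fit. Timp2 was lost when any library other than high-glucose 1 was left out (0.0605 to 0.0780), Cst7 when any other than high-glucose 2 was (0.0618 to 0.123), Gpnmb whichever was (0.0541 to 0.143), and Ank without a control-medium library or high-glucose library 3 (0.0787 to 0.151). Of 24 Alzheimer disease-associated genes 1 was lower, the kinase gene Ptk2b (−0.19 ± 0.05), which was lost whichever library was left out (0.0688 to 0.171).

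Genes of antioxidant defence and cystine uptake were lower where they were called. NRF2 is a transcription factor that switches on such genes under oxidative stress. Of its 23 tested targets 4 were lower and none higher by edgeR, and 6 and 0 by DESeq2 (median −0.11, and −0.15 to −0.05 over all settings tried), with 11 lower and none higher at an unadjusted p below 0.05. Slc7a11, the cystine and glutamate exchanger gene that feeds glutathione synthesis (chromosome 3 at 49892526 to 50443614), was at 180, 186 and 192 CPM in control medium and 111, 130 and 132 CPM in high glucose. It fell by 0.58 on the log2 scale (SE 0.08, 33.1% lower; edgeR adjusted p = 0.000637), without overlap and in each leave-one-out fit. The peroxiredoxin gene Prdx1 was at −0.26, catalase (Cat) at −0.35 and Nfe2l2, the gene for NRF2 itself, at −0.27 (edgeR adjusted p 0.0133 to 0.0298). Prdx1 was lost without high-glucose library 3 or either of control-medium 1 and 3 (0.0589 to 0.0900), Cat without those or high-glucose library 1 (0.0710 to 0.14), and Nfe2l2 when any library other than high-glucose 2 was left out (0.0736 to 0.160). Hmox1, for heme oxygenase, was at 911, 893 and 909 CPM against 874, 855 and 896 CPM (−0.05 ± 0.04; edgeR adjusted p = 0.652).

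The window before Slc7a11 is shown because it belongs both to NRF2's known targets and to those of ATF4, the factor of the amino acid response. Its 250 bases lie at chr3:50443614-50443863 on the minus strand (RefSeq, GRCm38.p6), and capitals mark TGATGCAA, the core letters of an amino acid response element, on either strand.
Slc7a11: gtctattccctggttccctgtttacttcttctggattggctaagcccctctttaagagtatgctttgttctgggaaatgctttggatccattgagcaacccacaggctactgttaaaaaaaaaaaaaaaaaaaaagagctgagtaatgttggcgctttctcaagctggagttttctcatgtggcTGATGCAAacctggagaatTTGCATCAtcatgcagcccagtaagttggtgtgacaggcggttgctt
The 2 matches lie at −66 to −59 and, on the other strand, at −47 to −40. Of all windows 0.791% hold the letters, and so do 3 of 96 genes called lower, 0 of 57 called higher and 64 of 9496 tested. The core antioxidant response letters TGACNNNGC, searched on both strands, were not among the letters of this window, and 10.2% of all windows hold them. The list of ATF4 targets holds neither Slc7a11 nor Aldh1l2, a gene called lower at −0.65, so its counts leave out both falls. Of its 25 tested genes 0 were called by edgeR and 1 by DESeq2, with 6 higher and 2 lower at an unadjusted p below 0.05.

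Other amino acid and folate genes gave single calls. Of 18 amino acid transporters 2 were lower and none higher by edgeR (2 and 1 by DESeq2), Slc7a11 and the large neutral amino acid carrier Slc43a2, at 87.8, 88.4 and 94.3 CPM and then 71.5, 63.5 and 68.0 CPM (−0.41 ± 0.06; edgeR adjusted p = 0.00154). Aldh1l2, which oxidises mitochondrial formyl-folate, was the 1 called gene of 22 in serine and folate metabolism (−0.65 ± 0.08, 36.1% lower; edgeR adjusted p = 0.000476). Hal, the enzyme that begins histidine breakdown, was at 62.8, 58.6 and 56.7 CPM and then at 42.8, 40.6 and 43.5 CPM (−0.49 ± 0.06; edgeR adjusted p = 0.000666). Slc43a2, Aldh1l2 and Hal passed whichever library was left out. Odc1, the first enzyme of polyamine synthesis, was higher in every library, with 1843, 1786 and 1773 CPM followed by 2217, 2126 and 2160 CPM (0.27 ± 0.03; edgeR adjusted p = 0.000637).

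Of 24 cholesterol synthesis genes 2 were lower and none higher by edgeR (3 and 0 by DESeq2), 22 had a negative change, and the median was −0.10 (−0.12 to −0.08 over all settings tried). The called pair were the mevalonate kinase gene Mvk (−0.31) and Hsd17b7 (−0.24). Mvk was lost whichever library was left out (0.0549 to 0.160) and Hsd17b7 when any library other than high-glucose 2 was left out (0.0681 to 0.133). Among 22 fatty acid synthesis genes 1 was lower, the desaturase gene Scd2, at 1556, 1523 and 1455 CPM and then 1282, 1327 and 1272 CPM (−0.22 ± 0.04; edgeR adjusted p = 0.00453). Lpcat1, which remodels phosphatidylcholine, was higher, at 120, 124 and 122 CPM and then 150, 149 and 154 CPM (0.31 ± 0.05; edgeR adjusted p = 0.00199). Scd2 and Lpcat1 passed in each leave-one-out fit. Further genes picked out after their values were seen were lower: the carnitine palmitoyltransferase gene Cpt1a (−0.33), the enoyl-CoA hydratase gene Echs1 (−0.27) and Ivd of leucine breakdown (−0.31), with edgeR adjusted p 0.0117 to 0.0431. Ivd was lost without control-medium library 3 (0.0616), Cpt1a when any library other than control-medium 3 was left out (0.0730 to 0.236) and Echs1 when any library other than high-glucose 1 was left out (0.0694 to 0.195).

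Outside metabolism and inflammation, the gene with the smallest p was Emp1, an epithelial membrane protein gene of the PMP22 family (chromosome 6 at 135362545 to 135383173). It was at 466, 464 and 461 CPM in control medium and 610, 640 and 621 CPM in high glucose, 1.35-fold higher (0.43 ± 0.04; edgeR adjusted p = 9.25e-05). Prrg4, a vitamin K-dependent membrane protein gene, went from 90.3, 89.0 and 89.9 CPM to 115, 131 and 127 CPM (0.47 ± 0.06; edgeR adjusted p = 0.000476). The metalloproteinase gene Mmp19 went from 73.9, 62.4 and 57.9 CPM to 93.1, 93.3 and 103 CPM (0.58 ± 0.07; edgeR adjusted p = 0.000637), and genes on the other strand cover 28.3% of its exons' length. Emp1, Prrg4 and Mmp19 passed in every leave-one-out fit. They had no overlap, which was a condition for naming genes by size or p. Of 12 tested epithelial-mesenchymal and vascular factors 4 were higher and none lower (median 0.22), with the vasoconstrictor gene Edn1, the transcription factor gene Snai1 and the growth factor gene Pdgfa (0.50) among them. Edn1 failed on leaving out any library other than the third of either medium (0.0560 to 0.111), Snai1 on dropping control-medium 1 or 3 (0.0659 and 0.0736), and Pdgfa whichever library was left out (0.0727 to 0.125). Vwf, which carries the clotting factor and is also an endothelial marker, was lower, at 44.1, 49.8 and 50.4 CPM and then 35.5, 32.8 and 33.0 CPM (−0.51 ± 0.07; edgeR adjusted p = 0.00165). The endothelial markers summed to 96.3 to 109 CPM in control medium and 92.1 to 99.2 CPM in high glucose, Cldn5 had no read, and their part in the result was not tested.

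RNA-binding protein genes supplied several of the smaller rises. Tardbp, which encodes TDP-43, an RNA-binding protein that aggregates in neurodegenerative disease, was at 404, 402 and 413 CPM and then at 491, 514 and 486 CPM (0.29 ± 0.04; edgeR adjusted p = 0.00227). It passed whichever library was left out, and a gene on the other strand covers 23.3% of its exons' length. Of 40 splicing factor and CLK kinase genes 2 were higher and none lower by edgeR (4 and 0 by DESeq2), Hnrnpa1 and Hnrnpl (0.26 and 0.25), and 31 had a positive change (median 0.07, and 0.05 to 0.07 over all settings tried). Hnrnpl was lost without control-medium library 3 (0.0525), and Hnrnpa1 on dropping high-glucose library 3 or either of control-medium 1 and 2 (0.0681 to 0.0838). Among 32 genes of DNA replication and mitosis 1 was higher, the endonuclease gene Ankle1 (0.89), lost when any library other than high-glucose 1 was left out (0.0658 to 0.160).

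**Figure D4:**
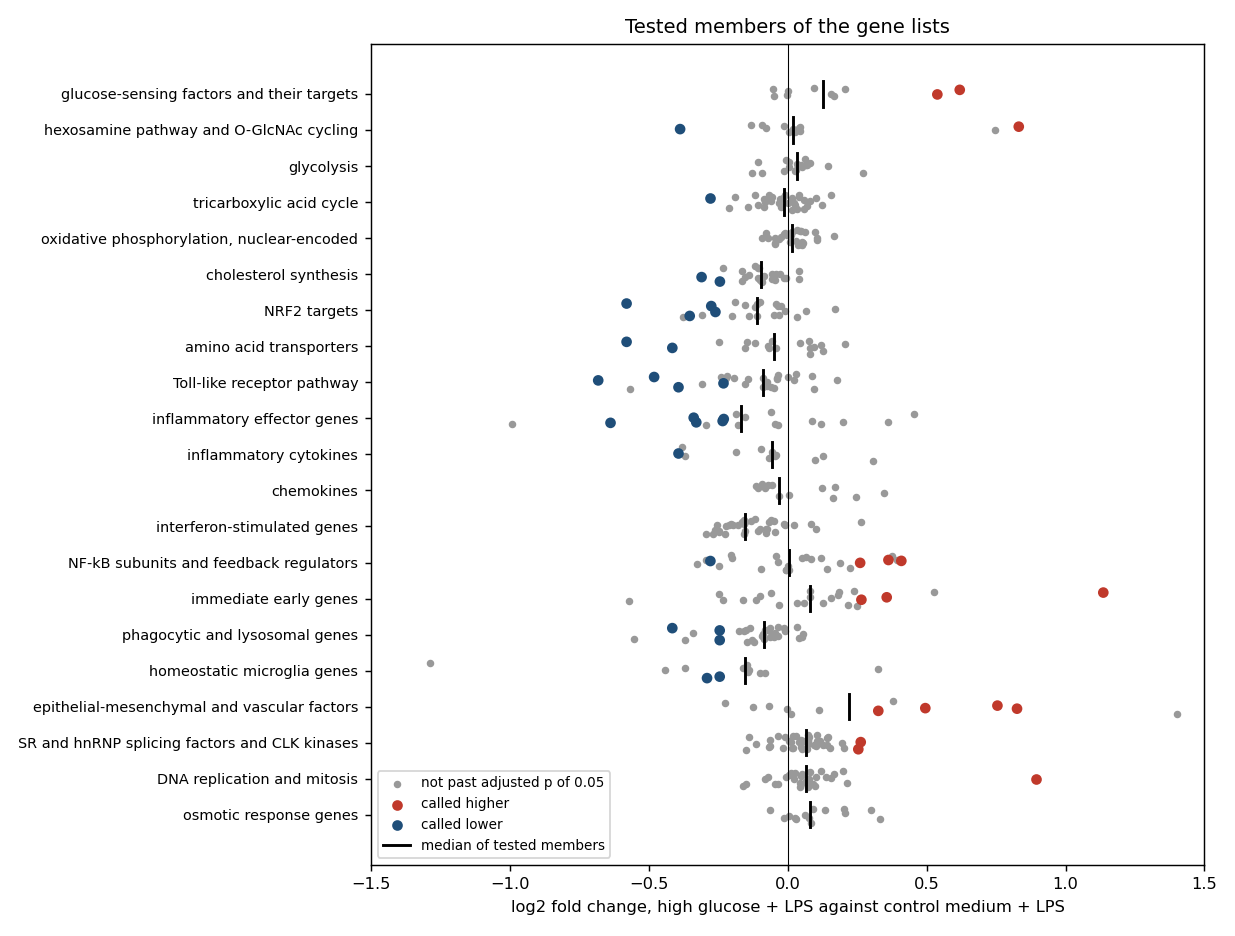
Each point is a tested member of a gene list, placed by its log2 fold change for high glucose against control medium with LPS. Red points were called higher, blue points lower, grey points were not called, and black bars are list medians. The bars lie between −0.17 and 0.22, and 1 point (Gapdh, −3.19) falls outside the axis.

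High fructose with LPS allowed a test of which changes differed between the 2 sugars. The direct comparison of high glucose with high fructose called 240 genes higher (1.88% of those tested) and 235 lower (1.84%), together 3.72%. Txnip was at 65.3, 65.2 and 65.2 CPM in high fructose, and high glucose exceeded it by 0.50 ± 0.05 (edgeR adjusted p = 2.94e-05). Arrdc4 was at 37.2, 37.9 and 33.2 CPM in high fructose, 0.49 ± 0.08 below high glucose (edgeR adjusted p = 0.00114). Against control medium those genes stood at 0.04 and 0.13 in high fructose, neither called. The fold change of high glucose against high fructose uses no control-medium library, although all 12 libraries set the test's estimate of spread. The 2 comparisons with control medium share the control-medium libraries with LPS. Il1rn, at 1396, 1301 and 1335 CPM in high fructose, was likewise higher in high glucose (0.33 ± 0.04; edgeR adjusted p = 7.56e-05), and so were Tardbp (0.35 ± 0.04; 9.83e-05) and Ier5 (0.25 ± 0.05; 0.0116). Slc7a11 (−0.44 ± 0.08; edgeR adjusted p = 0.00224), Itgb2 (−0.29 ± 0.04; 0.000373), Tlr2 (−0.20 ± 0.04; 0.0114), Vwf (−0.42 ± 0.07; 0.0026), Nfam1 (−0.29 ± 0.06; 0.00694) and Hal (−0.35 ± 0.06; 0.00418) were lower in high glucose than in high fructose. The Tlr2 difference was lost without high-fructose library 1 (0.0535), and that of Ier5 without high-glucose library 1 or high-fructose library 2 (0.0587 and 0.0607).

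Some genes moved further with fructose than with glucose. Mmp19 was at 160, 170 and 175 CPM in high fructose, so that high glucose lay 0.80 ± 0.07 below it (edgeR adjusted p = 3.56e-06), and Emp1 at 828, 816 and 792 CPM, 0.38 ± 0.04 above high glucose (2.51e-05). Cybb and the peptide transporter gene Tap1, lower in high glucose than in control medium by 0.23 and 0.38, were lower still in high fructose, a difference between the sugars of 0.31 ± 0.05 and 0.48 ± 0.09 (edgeR adjusted p = 0.00191 and 0.00438). Tap1 against control medium was lost when any library other than high-glucose 1 was left out (0.0623 to 0.160), and Cybb as given above. Nos2 was at 12.3, 14.6 and 12.7 CPM in high fructose, below every control-medium library, and high glucose exceeded it by 1.04 ± 0.12 (edgeR adjusted p = 4.56e-05). Ifit2 and the antiviral gene Oasl2 were not called against control medium by edgeR's main fit in high glucose. Both were higher there than in high fructose, by 1.24 ± 0.08 and 0.82 ± 0.08 (edgeR adjusted p = 1.38e-07 and 4.27e-06). Against control medium DESeq2 called Oasl2 lower (0.0169). So did edgeR with no filter on low counts (0.00237), in the 6 libraries alone (0.0449) and with the replicate number as a block (0.01).

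Other changes showed no difference between the sugars that passed the test. Ogt was at 45.4, 57.4 and 59.2 CPM in high fructose, and high glucose against it was 0.30 with a 95% interval of 0.08 to 0.52 (edgeR adjusted p = 0.131). Mgea5 differed by −0.24 (−0.38 to −0.10; edgeR adjusted p = 0.0574) and Tnf by −0.11 (−0.23 to 0.01; 0.394). For Acod1 the difference was −0.14 (−0.23 to −0.06; edgeR adjusted p = 0.0635) and for Gpr84 −0.19 (−0.38 to 0.00; 0.336). With 1 library left out, 3 of these did pass: Ogt without high-glucose library 1 (0.0484), Mgea5 without high-glucose library 2 (0.0363) and Acod1 without that library or high-fructose library 3 (0.0226 and 0.0475). Intervals centred closer to 0 were found for Socs3 (−0.10 to 0.08), Prrg4 (−0.15 to 0.08), Lpcat1 (−0.12 to 0.08) and Tlr13 (−0.18 to 0.15). Csf1r lay between −0.18 and 0.00. Against control medium, where high fructose called 302 genes higher (2.37% of those tested) and 325 lower (2.55%), together 4.91%, these 4 and Csf1r were also called, at 0.27, 0.51, 0.33, −0.46 and −0.20.

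**Figure D5:**
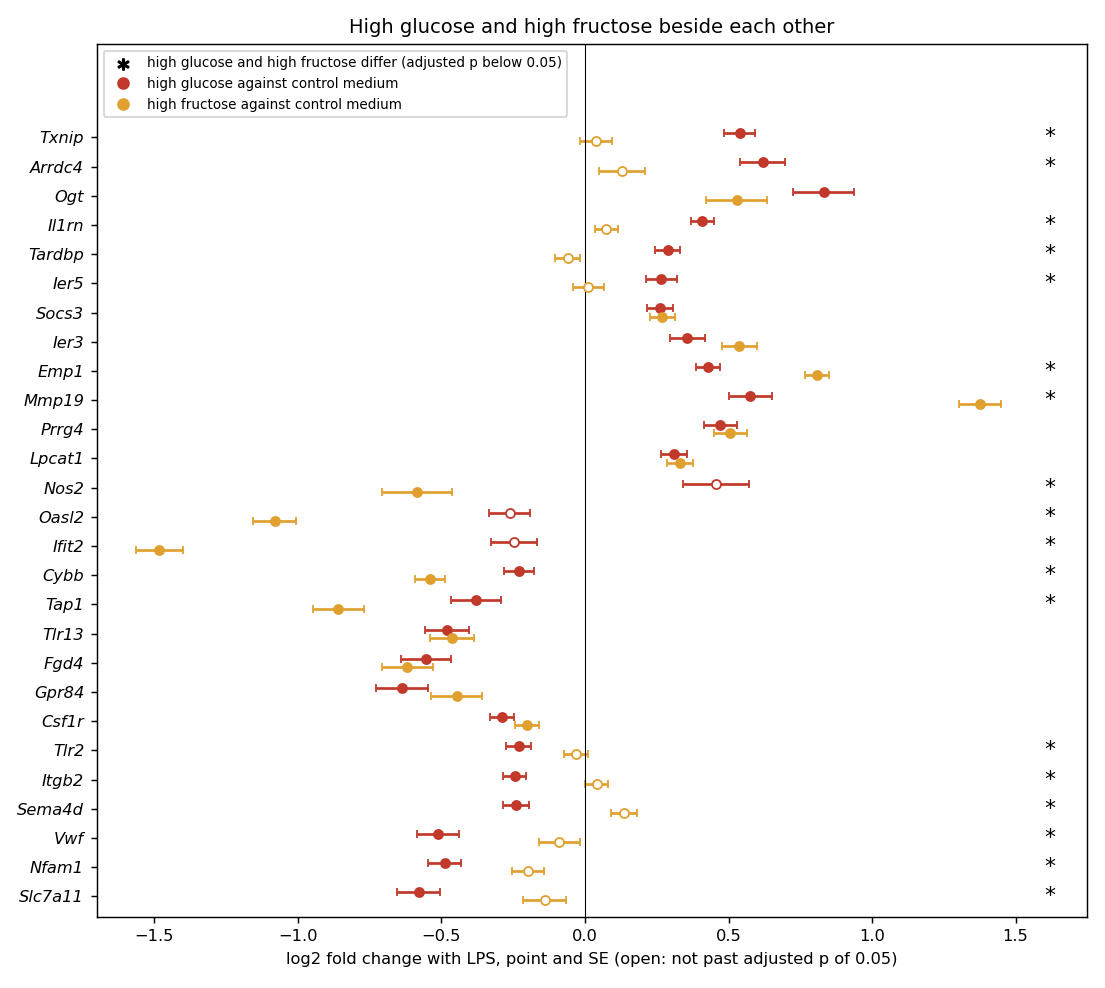
Log2 fold change (point) and SE (bar) of 27 genes against control medium with LPS, in red for high glucose and in yellow for high fructose, with open symbols where the adjusted p is not below 0.05. The 2 colours share the control-medium libraries, and asterisks mark genes whose direct comparison of high glucose with high fructose passed, such as Txnip, Il1rn and Mmp19 but not Ogt or Socs3.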

How the data were processed

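The authors deposited raw read counts for 54532 Ensembl genes in 12 libraries, made with featureCounts 1.5.0-p3 on mm10 per the submitters' processing notes, and the deposited FPKM table was not used for any test. The sources used here give no aligner, annotation release or strand setting.

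Counts were fitted in edgeR 4.0.16 (R 4.3.3) with 1 coefficient per group over all 12 libraries, filterByExpr and TMM scaling, and adjusted by Benjamini-Hochberg over 12766 genes. CPM values are TMM-scaled. SEs come from the quasi-likelihood F statistic. Intervals are at 95%. The fit was tested on simulated data. Alternatives were other scalings, no filter, DESeq2 1.42.0, a replicate block, the 6 libraries alone and leave-one-out.

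Named genes were the 20 with the smallest p and the 12 with the largest change in each direction (called, protein-coding, at least 50 mean counts, no overlap), all called list members, a fixed set, up to 3 genes per list, up to 5 non-coding genes and up to 8 that differ from high fructose. C5ar1, Cd14, Cpt1a, Echs1, Igsf6, Ivd, Nfkbia, Tnfaip3, Tnfsf13b and Unc93b1 were added after their values were seen. Some genes are not reported here. The members and all gene lists were chosen with earlier results of these data known.

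Exon overlap and sequence similarity (BLAST 2.17.0+, at least 98% identity over 75 bases, uncertain from 50% of a transcript) used GENCODE M21 (GRCm38), which holds 54495 of the identifiers. Promoter windows come from RefSeq (GRCm38.p6), matched by symbol for 9496 tested genes.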

Additional observations from a re-analysis of the deposited data

How the results depend on the processing

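The count of genes that differed between high glucose and control medium rose to 427 (223 higher, 204 lower) with no filter on low counts and to 329 with DESeq2. Leaving out 1 library at a time left between 67 and 177 calls, the lowest being those that drop a control-medium library (67 to 74) or high-glucose library 3 (70). Other scalings (192 to 207) and the 6 libraries alone (147) stayed within 1.5 times of 199. High glucose against high fructose gave 332 to 385 genes with 1 library left out. With the replicate number as a block the counts were 391 and 735 (against 199 and 475). Same-numbered libraries correlated at 0.113, −0.0413 and 0.0512, and high-glucose library 2 correlated best with control-medium library 3 (0.123). In every group of the series, however, library 1 had the lowest share of mitochondrial protein-coding reads. That share was 0.503% in control medium and 0.445% in high glucose, both with LPS. Library 1 also had the highest share of ribosomal RNA reads in every group. The labels do not say what the numbers mark, so the block was kept as an alternative, and a shared batch was not tested. The difference between the sugars changed sign with 1 library left out for Prrg4 (−0.0708 to 0.0184), Lpcat1 (−0.0454 to 0.00881), Tlr13 (−0.101 to 0.0807) and Socs3 (−0.0266 to 0.00943). The interferon-stimulated genes called lower were 9 of 36 with the block. At 1.19 to 3.25 CPM, Fosb rests on few reads. The causes were not tested.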
